A study of Mus musculus with 28 samples.

Results

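The passage of Tet2-deficient fibroblasts into reprogramming without any returned Tet2 was described from open chromatin, by setting 4 libraries of empty vector cells at day 5 against 4 libraries of untreated mouse embryonic fibroblasts (MEFs, day 0). These are 8 of the 28 libraries of the series, chosen by their titles. The assay was ATAC-seq for open chromatin, in which a transposase inserts sequencing adapters into accessible DNA, and each library is represented by the list of peaks that its authors called in it. The day 5 cells were Tet2-/- MEFs carrying doxycycline-inducible OKSM and rtTA, transduced with the empty retroviral vector pMXs, grown on mitomycin-treated MEF feeder cells in 2i, LIF and doxycycline, and sorted by flow cytometry on SSEA1-RFP. The day 0 libraries are labelled control untreated MEFs, with no isolation step. All 8 carry the strain label V6.5 129XBI/6 and the age label embryonic day 12.5, and the design text gives Tet2-/- and OKSM-rtTA for the MEFs of all groups. Vector, culture, sorting and time in reprogramming therefore changed together and cannot be told apart. The labels name no separate cultures, embryos or clones for the replicates, so each p-value covers only how these libraries vary, and that variation may be technical.

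OKSM stands for Oct4, Klf4, Sox2 and Myc, the transcription factors that turn fibroblasts into induced pluripotent stem cells. As background, these factors are known to act on chromatin in stages, with fibroblast regulatory elements losing accessibility early and elements of the pluripotent state opening over the following days. SSEA1 is a surface carbohydrate that marks cells on the way to pluripotency, and TET2 is an enzyme that oxidises 5-methylcytosine in DNA. The peak lists are in the mm9 build and the gene annotation at hand is in another build, so regions are given by their mm9 position, counted from 1, with no gene name and no sequence, and the fibroblast label was not tested on marker genes.

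Presence or absence of a peak, and not its height, was compared between libraries. Overlapping peaks of the 8 lists on chromosomes 1 to 19 and X were merged into 131581 regions, and a library called a region when 1 of its peaks lay in it. Of these regions, 50161 were called in a single library and 81420 in at least 2. The background pileup, which stands for sequencing depth and was inferred from the deposited fold and p of each peak, was 0.825, 0.746, 0.830 and 0.881 in the day 5 libraries, against 0.660, 0.394, 0.501 and 0.458 in the MEF libraries. All 4 day 5 libraries lay above all 4 MEF libraries, so that depth is confounded with the comparison. The inferred value also moves with the fragment length used by the caller. The shortest peak, which follows that length under the default settings of the caller, was 85 to 90 bp at day 5 and 99 to 115 bp in MEFs.

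The lists of both groups overlapped in length. They held 42539, 44357, 60154 and 49642 peaks at day 5, against 72140, 41345, 56538 and 52159 peaks in MEFs. The ranges overlap, with the longest and the shortest list both from MEFs, and the means of 49173 ± 7916 at day 5 and 55546 ± 12774 in MEFs (SD, n = 4 each) did not differ beyond the spread (exact permutation p = 0.486, adjusted p = 0.607 over 5 values). The peaks covered 10.3 ± 1.83 Mb at day 5 and 13.6 ± 3.43 Mb in MEFs (SD, n = 4 each; exact permutation p = 0.114, adjusted p = 0.190). Without MEF replicate 1 the difference in number shrank to -841 peaks and that in covered length to -1.72 Mb. With peaks matched for depth, an alternative chosen once the data had been seen, the difference in number was -15727 peaks (exact permutation, adjusted p = 0.0952).

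The median width of all peaks was 165, 158, 166 and 165 bp at day 5, against 198, 209, 186 and 185 bp in MEFs, a difference of means of -31 bp. With depth-matched peaks the medians were 196, 175, 198 and 213 bp at day 5, against 214, 209, 187 and 186 bp in MEFs. The groups then overlapped, and the difference was -3.5 bp (exact permutation, adjusted p = 0.714). Depth matching dropped whole peaks by their summit and left the edges of the others as deposited. It kept 32684, 37870, 45848 and 32746 peaks at day 5, against 62941, 41331, 56014 and 51771 in MEFs. The medians thus changed through the peaks dropped, mostly at day 5, and the widths themselves were not matched for depth. Peaks over 500 bp made up 4.40% ± 0.695 of the day 5 lists and 7.77% ± 1.45 of the MEF lists (SD, n = 4 each). Over the lists as deposited, both width differences had the smallest p that 4 against 4 libraries allow in a 2-sided exact permutation test, 0.0286, and neither passed correction (adjusted p = 0.0714). The share of peaks on chromosome X was 2.26% ± 0.0923 at day 5 and 2.25% ± 0.0626 in MEFs (SD, n = 4 each; exact permutation p = 0.857, adjusted p = 0.857).

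**Figure D1:**
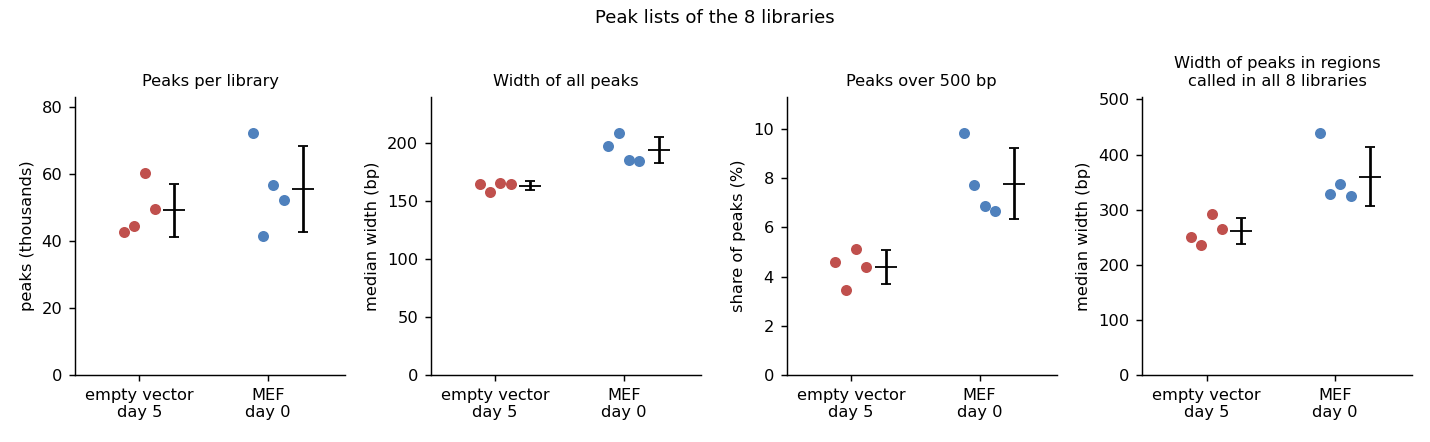
Each point is 1 library, with empty vector day 5 on the left and MEF day 0 on the right of each panel, and the bars are mean ± SD (n = 4 each). The panels show the number of peaks, the median peak width in bp, the percentage of peaks over 500 bp, and the median width in bp of peaks in regions called in all 8 libraries; the groups overlap in the first panel and not in the other 3.

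Peak sets of the 2 groups were set apart far more than replicates were from each other. The Jaccard index, the base pairs shared by 2 lists over those covered by either, ranged from 0.198 to 0.253 between day 5 and MEF libraries. It ranged from 0.442 to 0.463 among day 5 libraries and from 0.421 to 0.482 among MEF libraries, so the between-group range lay below both. The mean index within groups exceeded that between groups by 0.223 (2-sided exact permutation of library labels, p = 0.0286, the smallest possible).

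Regions that all 4 libraries of a group called give the clearest picture of what was kept. The 4 day 5 libraries shared 23382 regions, of which 11784 (50.4%) were also called in all 4 MEF libraries and 7789 (33.3%) in none of them. A further 990, 1064 and 1755 were called in 1, 2 or 3 MEF libraries, which is 4.23%, 4.55% and 7.51%. The 4 MEF libraries shared 27904 regions, of which 11784 (42.2%) were called in all 4 day 5 libraries and 8658 (31.0%) in none. The remaining MEF regions were called in 1 (3029 regions, 10.9%), 2 (2112, 7.57%) or 3 (2321, 8.32%) day 5 libraries. Single day 5 libraries called 49.9%, 50.6%, 61.7% and 57.7% of the shared MEF regions. Single MEF libraries called 63.8%, 54.8%, 60.1% and 58.7% of the shared day 5 regions. In both directions the highest share belonged to the library with the longest list, day 5 replicate 3 and MEF replicate 1.

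**Figure D2:**
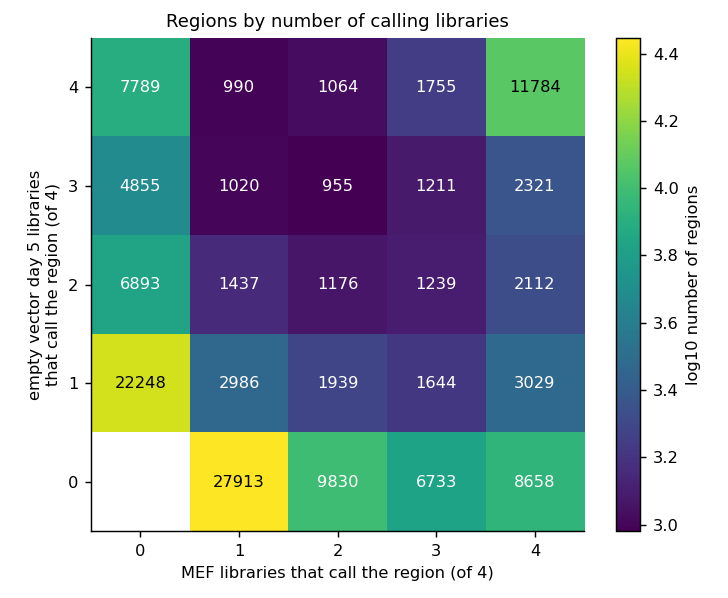
Each cell gives the number of merged regions called in a given number of empty vector day 5 libraries (vertical axis, 0 to 4) and MEF libraries (horizontal axis, 0 to 4), coloured by its log10. The corners hold 7789 regions called only at day 5 in all 4 libraries, 8658 called only in MEFs in all 4, and 11784 called in all 8.

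Regions were tested one by one by a 2-sided Fisher's exact test of the number of libraries that called them. With 4 against 4 libraries only a region called in exactly 4 of the 8 can reach p under 0.05, and then only if the 4 are 1 whole group. P-values were therefore adjusted by the Benjamini-Hochberg method over the 20287 regions called in exactly 4 libraries. Of these, 7789 (38.4%) were called in 4 of 4 day 5 and 0 of 4 MEF libraries and are referred to as opened. A further 8658 (42.7%) were called in 0 of 4 day 5 and 4 of 4 MEF libraries and are referred to as closed. Each had Fisher's exact p = 0.0286 and adjusted p = 0.0352. Together they were 81.1% of the regions tested, and 52.6% of them were closed. The calls rest on this choice of regions. Adjusted over all regions called in at least 2 libraries the same 7789 and 8658 regions had Fisher's exact p = 0.0286 and adjusted p = 0.141, and over all merged regions adjusted p = 0.229, so none passed. Leaving out any 1 of the 8 libraries also ended the calls (Fisher's exact test, adjusted p from 0.0502 to 0.0531), although 7860 to 9606 regions were then still called in every day 5 and no MEF library, and 8859 to 12407 in every MEF and no day 5 library. With 1 library fewer, more regions can reach p under 0.05, and the adjustment ran over 32051 to 35586 of them. The smallest Fisher's exact p stayed at 0.0286.

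The balance of opening and closing changed with depth matching and with the rule for a call. When summit pileup and background were scaled to the lowest background of the 8 libraries, an alternative chosen once the data had been seen, 5545 regions opened and 10472 closed, a closed share of 65.4% (Fisher's exact test, adjusted p = 0.0340). When peaks had to cover at least 50% of a region, 4702 opened and 7662 closed, a closed share of 62.0% (Fisher's exact test, adjusted p = 0.0379). With an equal number of peaks in each list, 7229 opened and 7632 closed (51.4% closed), and with peaks of -log10 q of at least 5, 5861 opened and 7865 closed (57.3%). Closed regions outnumbered opened ones under each of these settings. Among libraries left out in turn, opened regions were the larger number without day 5 replicate 1 (48.0% closed) and without day 5 replicate 2 (49.3%).

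Opened regions stood in the upper part of the day 5 lists, as did regions called in all 4 day 5 libraries and in some or all MEF libraries. The choice of regions called in all 4 day 5 lists therefore partly sets this standing. Strength is given as the percentile of a peak's deposited fold within its own list, the fold being the authors' enrichment of the summit over the local background, and it is not compared as a level between libraries. The median percentile of peaks in opened regions was between 61.2 and 71.1 in the 4 day 5 lists. Peaks in regions called in all 8 libraries had medians of 69.8 to 76.9 there, and peaks in regions called in all 4 day 5 but only 2 MEF libraries had medians of 55.4 to 61.1. Opened regions thus ranked between the regions shared by every library and those partly shared. In the MEF lists, closed regions had medians of 56.0 to 74.6 and regions called in all 8 had medians of 68.2 to 78.3. Regions called in all 4 MEF and 1 day 5 library ranked above closed regions in each MEF list, with medians of 63.7 to 79.8.

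Changed regions were narrower than the regions called in all 8 libraries. The median width of a merged region was 362 bp for opened (quartiles 285 and 455), 342 bp for closed (quartiles 267 and 443) and 599 bp for regions called in all 8 (quartiles 453 and 757). A region merged from 8 lists can be wider than one merged from 4, so single peaks were also compared. In the day 5 lists the median peak width was 215 to 273 bp in opened regions and 236 to 292 bp in regions called in all 8. Opened regions had wider peaks than the whole day 5 lists, whose medians were 158 to 166 bp, and than regions called in all 4 day 5 and 1, 2 or 3 MEF libraries (154.5 to 222 bp), in each list. In the MEF lists it was 206 to 268 bp in closed regions and 325 to 439 bp in regions called in all 8. It exceeded the median of the whole list in MEF replicates 1, 3 and 4 but not in MEF replicate 2, where it was 206 bp in closed regions and 209 bp over all peaks. Unlike opened regions, closed regions had narrower peaks than the partly shared regions of their group. Regions called in all 4 MEF and 1, 2 or 3 day 5 libraries had medians of 225.5 to 305 bp, above closed regions in each MEF list. Whole lists also hold peaks of regions called in fewer than 4 libraries of the group. The contrasts with whole lists, for opened and closed regions, are therefore not of like with like. All opened regions together covered 2.97 Mb, closed regions 3.17 Mb and regions called in all 8 libraries 7.28 Mb.

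The 10 opened regions with the highest median percentile are given as examples of the class. Where no MEF list held a peak, a signal under the threshold may still have been present. These 10 regions were chosen by rank in the day 5 lists, so their height there is a description. The first lay at chr6:93579846-93580232, a region of 387 bp. Its deposited fold was 17.1, 11.9, 18.01 and 17.0 in the 4 day 5 lists, which put it at the 99.9th, 96.6th, 99.9th and 99.9th percentile of those lists, and no MEF list held a peak there. The second, at chr9:79678529-79679175, had folds of 13.8, 16.03, 15.5 and 15.6. The third, at chr6:101620497-101621013, had folds of 14.3, 15.8, 14.8 and 14.7. These 3 regions stood in the top 4% of each day 5 list.

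The next opened regions lay at chr10:49137044-49137503 (median fold 14.6), chr4:6895855-6896342 (14.9), chr13:17549832-17550200 (14.5) and chr2:134281853-134282305 (14.2). The last 3 were at chr4:65991629-65992190 (14.3), chr12:78290240-78290504 (13.9) and chr10:129856853-129857461 (13.9). All 10 were called in 8 of 8 day 5 libraries of the other vectors and in 12 of 12 day 10 libraries, none of which chose them. The 3 widest opened regions had lower ranks. They were 1056 bp at chr15:25683662-25684717 (median fold 7.28), 1017 bp at chr3:9654298-9655314 (9.69) and 1002 bp at chr5:50239287-50240288 (9.58). These too were called in 8 of 8 and 12 of 12 of the other libraries.

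The 10 closed regions of highest rank stood at the top of the MEF lists. The first, at chr6:122565815-122566128 (314 bp), had folds of 22.4, 21.7, 20.5 and 18.9 in the 4 MEF lists, at the 99.7th to 99.96th percentile, and no peak in any day 5 list. The second, at chr6:96003486-96003805, had folds of 21.1, 19.9, 22.8 and 20.1. The third, at chr8:63343696-63344070, had folds of 22.8, 18.5, 24.5 and 18.9. In each MEF list these 3 were among the top 1% of peaks, and each was called in 0 of the 20 other libraries.

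The other closed regions lay at chr6:146134096-146134473 (median fold 19.9), chr12:102721785-102722109 (19.4), chr13:32976698-32976991 (19.7) and chrX:65616574-65616748 (19.5). They were followed by chr16:86138430-86138741 (18.8), chr1:65400758-65401193 (18.6) and chr10:124693002-124693321 (18.2). Those on chromosomes 12, 16 and 1 were each called in 1 of 8 day 5 libraries of the other vectors, the other 4 in none, and all 7 in 0 of 12 day 10 libraries. The region on chromosome X was the narrowest of the 20, at 175 bp. The widest closed regions were 1070 bp at chr1:155419353-155420422 (median fold 9.55), 1058 bp at chr15:85897327-85898384 (7.25) and 1031 bp at chr11:109678132-109679162 (11.3). Each of these 3 was called in 2 of the 8 other day 5 libraries and in 0 of 12 at day 10.

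Libraries that played no part in choosing the regions show how far the calls held. Opened regions were called at 93.5% ± 0.853 in Tet2-WT and 91.0% ± 2.77 in Tet2-E day 5 libraries (SD, n = 4 each), and 5463 of the 7789 (70.1%) were called in all 8 of these. Tet2-WT is wild-type Tet2 and Tet2-E the mutant that the series calls stalling. Day 10 libraries called fewer of them, with no overlap with the day 5 libraries of any vector. The share was 68.8% ± 5.55 for empty vector cells, 72.0% ± 8.52 for Tet2-WT cells and 69.2% ± 11.6 for Tet2-E cells (SD, n = 4 each). Of the opened regions 2122 (27.2%) were called in all 12 day 10 libraries and 136 (1.75%) in none. Closed regions stayed uncalled more often. They were called at 5.86% ± 3.66 in Tet2-WT and 3.30% ± 1.31 in Tet2-E day 5 libraries, and on day 10 at 1.38% ± 0.442 in empty vector, 1.51% ± 0.699 in Tet2-WT and 1.29% ± 0.777 in Tet2-E cells (SD, n = 4 each). Of the 8658 closed regions 6664 (77.0%) were called in none of the 8 other day 5 libraries and 7902 (91.3%) in none of the 12 at day 10. Regions called in all 8 libraries were called at 89.7% ± 2.46 at day 10 with the empty vector (SD, n = 4). On that day Tet2-WT cells had 90.2% ± 4.25 and Tet2-E cells 89.3% ± 5.15 (SD, n = 4 each). Their day 5 libraries had 97.7% ± 0.605 and 96.6% ± 1.10 (SD, n = 4 each), so this share was also lower at day 10. Across Tet2-E day 10 replicates 1 to 4 it fell from 94.8% to 83.6%. The share of opened regions fell there from 81.3% to 55.3%. Empty vector day 10 replicates 2 and 3 stood in opposite orders on these shares. The regions were chosen for being complete in the 8 libraries compared, so a lower share elsewhere is partly set by that choice. Depth and list length in the other libraries were not compared, and their part in the day 10 shares, of opened and of closed regions, was not tested.

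**Figure D3:**
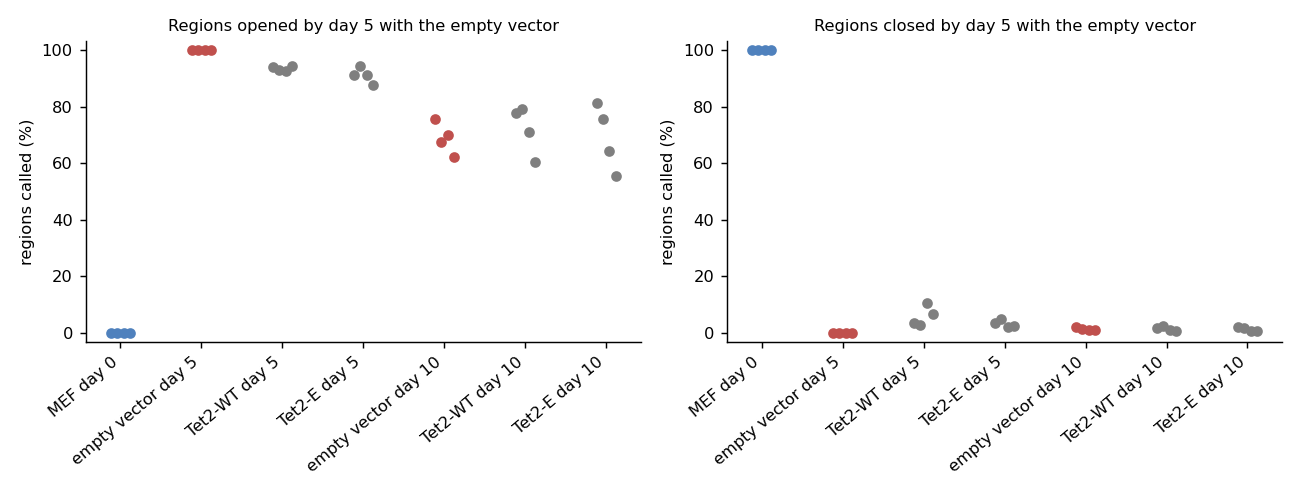
Each point is 1 library, and the vertical axis is the percentage of the 7789 opened (left) or 8658 closed (right) regions that it called. MEF and empty vector day 5 libraries are at 0% or 100% by construction; the other day 5 libraries lie between 87.6% and 94.4% on the left and between 2.30% and 10.6% on the right.

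The same comparison with the other vectors, which shares the 4 MEF libraries, gave 9459 opened and 8806 closed regions for Tet2-WT (48.2% closed) and 7947 opened and 10151 closed for Tet2-E (56.1% closed; Fisher's exact test with adjusted p = 0.0343 and 0.0339). The difference between vectors was not tested here.

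Opened and closed regions were interleaved along the genome with a tendency to lie beside their own kind. Of 2554 bins of 1 Mb that held any region, 2091 held an opened region, 2166 a closed one and 1915 both. Among 16427 pairs of neighbouring changed regions, 55.1% were of the same kind, where an independent order would give 50.1%. The nearest opened region lay at a median distance of 64.4 kb from an opened region, and the nearest closed region at 85.8 kb. From a closed region the nearest opened one was at 99.1 kb and the nearest closed one at 63.1 kb. Of opened regions 12.2% lay within 10 kb of a region called in all 8 libraries, and of closed regions 9.46% did.

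The longest unbroken stretch of openings held 15 opened regions with no closed one between them, at chr11:88093992-88717339, a span of 0.623 Mb. The stretch was picked for its length, and whether an independent order would give one as long was not tested. It also held 2 regions called in all 8 libraries and 59 other regions. Of the 15, 13 were called in all 8 day 5 libraries of the other vectors and 5 in all 12 at day 10. Over all opened regions these shares were 70.1% and 27.2%. The bin of 1 Mb with most openings included this stretch, at chr11:88000001-89000000, with 17 opened and 2 closed regions. It was followed by chr1:134000001-135000000 (15 opened, 6 closed) and chr10:6000001-7000000 (15 opened, 2 closed). In that order the bins held 115, 109 and 90 merged regions of any kind, and the part of this number in the counts was not tested. The median bin held 2 opened and 3 closed regions.

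The longest stretch of closings held 18 closed regions at chr8:117633292-119622181, a span of 1.99 Mb, with 6 regions called in all 8 libraries inside it. Its length, too, was not tested against an independent order. All 18 were uncalled in the 12 day 10 libraries, and 16 were uncalled in the 8 other day 5 libraries. Over all closed regions these shares were 91.3% and 77.0%. The 3 bins with most closings were also on chromosome 8. They lay at 129000001 to 130000000 (18 closed, 5 opened), 126000001 to 127000000 (16 closed, 4 opened) and 25000001 to 26000000 (15 closed, 7 opened). In that order these bins held 130, 153 and 83 merged regions of any kind.

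Among chromosomes, the share of peaks was farthest apart on chromosome 8. It held 5.91%, 5.93%, 5.73% and 6.07% of the peaks at day 5, against 6.44%, 6.76%, 6.63% and 6.69% in MEFs, and the groups did not overlap. The difference of means was -0.720 percentage points. Chromosome 18 was also lower at day 5, with 3.09% ± 0.0413 at day 5 and 3.41% ± 0.0582 in MEFs, as were chromosome 13 (4.47% ± 0.0778 and 4.71% ± 0.0163) and chromosome 15 (3.93% ± 0.124 and 4.15% ± 0.0647; SD, n = 4 each). Chromosome 11 held 6.79% ± 0.252 of peaks at day 5 and 6.35% ± 0.0690 in MEFs, chromosome 7 6.38% ± 0.0805 and 5.97% ± 0.122, chromosome 17 4.34% ± 0.0549 and 3.96% ± 0.0682, and chromosome 2 7.91% ± 0.0452 and 7.71% ± 0.0657 (SD, n = 4 each). In these 8 autosomes the libraries of the 2 groups did not overlap (exact permutation p = 0.0286 each, the smallest possible), and over the 19 autosomes none passed correction (adjusted p = 0.0679). Nor did any pass with equal numbers of peaks (exact permutation, smallest adjusted p = 0.0905), with the replicate number as a block, or without any 1 library. With peaks of -log10 q of at least 5, and again with depth-matched peaks, 11 autosomes passed (exact permutation, adjusted p = 0.0494). The 9 that passed under both were chromosomes 2, 4, 7, 11 and 17, higher at day 5, and chromosomes 1, 8, 13 and 18, lower at day 5. This comparison was added after the data were seen.

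The balance of opened and closed regions also varied between chromosomes. On chromosome 8 450 regions opened and 672 closed, a closed share of 59.9%, and on chromosome 18 257 opened and 387 closed (60.1%), against 52.6% over all chromosomes. Chromosome 17 had the lowest closed share, with 316 opened and 295 closed (48.3%). Chromosomes 11 (449 opened and 481 closed, 51.7% closed) and 2 (605 and 656, 52.0%), which held a larger share of peaks at day 5, lay close to the value over all chromosomes. In the other day 5 libraries chromosome 8 held 5.57% to 6.14% of peaks with Tet2-WT and 5.41% to 6.16% with Tet2-E. At day 10 it held 6.28% to 6.50% in empty vector, 6.09% to 6.59% in Tet2-WT and 6.17% to 6.56% in Tet2-E libraries, above each of the 4 empty vector day 5 libraries and partly within the MEF range. Chromosome 18 held 2.85% to 3.10% at day 10 with the empty vector, below each MEF library.

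**Figure D4:**
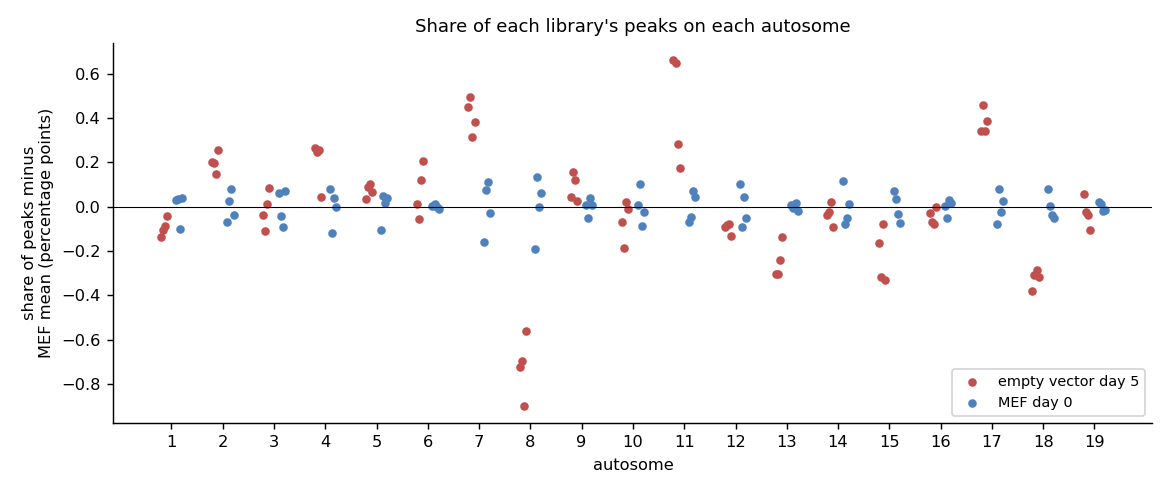
Each point is 1 library's share of peaks on an autosome minus the MEF mean, in percentage points, with empty vector day 5 to the left of MEF day 0. The day 5 points of chromosome 8 lie farthest below 0. The mean of the day 5 points is highest on chromosome 11, followed by chromosomes 7 and 17.

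Regions called in all 8 libraries kept a peak throughout, and in the lists as deposited their peaks were narrower and more often split at day 5. The following 4 values were compared after the data were seen. The median width of peaks in these 11784 regions was 251, 236, 292 and 265 bp at day 5, against 439, 329, 346 and 325 bp in MEFs, with no overlap between groups. Peaks over 500 bp were 11.8% ± 3.14 of those at day 5 and 26.4% ± 9.16 in MEFs (SD, n = 4 each). A region held 1.21 ± 0.0130 peaks at day 5 and 1.11 ± 0.0275 in MEFs (SD, n = 4 each). These 3 differences passed (exact permutation p = 0.0286, adjusted p = 0.0381 over 4 values), and all 3 missed the threshold without day 5 replicate 2 or without MEF replicate 1 (exact permutation, adjusted p from 0.0571 to 0.0762). They also missed it with depth-matched peaks, in 10380 regions called in all 8 of those lists. The median width was then 292 ± 26.4 bp at day 5 and 378 ± 57.2 bp in MEFs (SD, n = 4 each; exact permutation, adjusted p = 0.0571), and a region held 1.151 ± 0.0219 peaks at day 5 and 1.105 ± 0.0313 in MEFs (SD, n = 4 each; exact permutation, adjusted p = 0.0857). The groups still did not overlap in median width, with 261 to 324 bp at day 5 and 343 to 463 bp in MEFs. Nor did they in peaks over 500 bp, with 9.63% to 18.7% at day 5 and 22.5% to 43.4% in MEFs. In peaks per region they overlapped. The kept peaks had their deposited edges, so their widths were not matched for depth. With the lists as deposited, the peaks covered 57.5% ± 4.81 of the length of these regions at day 5 and 69.1% ± 7.95 in MEFs (SD, n = 4 each; exact permutation p = 0.0571, adjusted p = 0.0571). The shortest peak of a list also differed between the groups, and its part in these values was not tested.

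The main summits of these regions lay close together in all libraries. The median distance between the main summits of 2 libraries was 36 to 38 bp within day 5, 31 to 37 bp within MEFs and 37 to 45 bp between the groups. The mean distance within groups was 5.27 bp shorter than between them (2-sided exact permutation of library labels, p = 0.0286, the smallest possible; added after the data were seen).

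A shared peak could still gain or lose standing among the others. For each library the 11784 regions were ranked by their deposited fold, from 0 for the lowest to 100 for the highest, and the ranks were compared by limma, with p-values adjusted over all 11784. The rank says where a region stood among the same regions in its own library, not how open it was. This test was added after the data were seen. Across regions the ranks of 2 libraries correlated at 0.658 to 0.686 (Pearson) within day 5, 0.718 to 0.761 within MEFs and 0.480 to 0.538 between the groups. Regions are not independent replicates, and these values describe the libraries. At day 5, 482 regions ranked higher (4.09% of those tested) and 673 ranked lower (5.71%) at an adjusted limma p under 0.05. The median difference was 42.3 percentiles for those that rose and -45.7 for those that fell, while the median size over all 11784 regions was 11.96. In 1095 of the regions called in either direction the libraries of the 2 groups did not overlap, which held for 16.1% of all regions tested.

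The largest rise lay at chr10:3221087-3221664 (578 bp). It stood at percentiles 93.9, 96.9, 97.9 and 90.3 at day 5, against 6.52, 3.50, 8.42 and 8.79 in MEFs (difference 88.0, SE 5.48, limma adjusted p = 0.000141). A region at chr3:107690633-107691074 stood at 84.9, 80.6, 98.8 and 93.3 at day 5, against 1.05, 1.96, 1.00 and 18.05 in MEFs (difference 83.9, SE 6.99, limma adjusted p = 0.000256). Regions at chr11:87475927-87476306 (difference 74.4), chr19:5178646-5179129 (72.3) and chr9:21722418-21723071 (71.7) followed. All 5 stood at percentile 66.7 or above in each day 5 library, against 29.97 or below in each MEF library, and all were called in 8 of 8 other day 5 libraries.

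The largest fall lay at chr13:5836416-5837039 (624 bp). It stood at percentiles 3.21, 9.16, 11.9 and 6.24 at day 5, against 99.4, 98.3, 99.0 and 99.6 in MEFs (difference -91.5, SE 5.43, limma adjusted p = 0.000141). A region at chr8:95230238-95230549 stood at 9.01, 27.9, 8.36 and 1.32 at day 5, against 99.8, 99.9, 99.9 and 99.9 in MEFs (difference -88.2, SE 6.91, limma adjusted p = 0.000231). Regions at chr17:43544256-43545069 (difference -89.6), chr3:126087865-126088299 (-88.1) and chr13:111719795-111720165 (-86.8) were the others. These 5 stood at percentile 91.2 or above in every MEF library. They were called in 2 to 5 of 8 other day 5 libraries and in 0 to 3 of 12 day 10 libraries.

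The fate of these regions at day 10 was read from libraries that the ranking did not use. Of the 673 regions that ranked lower at day 5, 24.1% were called in all 12 day 10 libraries, against 66.1% of all regions called in all 8 libraries. Of the 482 that ranked higher, 84.9% were called in all 12. In the 8 other day 5 libraries, 58.7% of the lower and 98.1% of the higher regions were called in every library, against 87.0% of all. Rank and call are both read from the height of a peak, and these shares are a description.

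**Figure D5:**
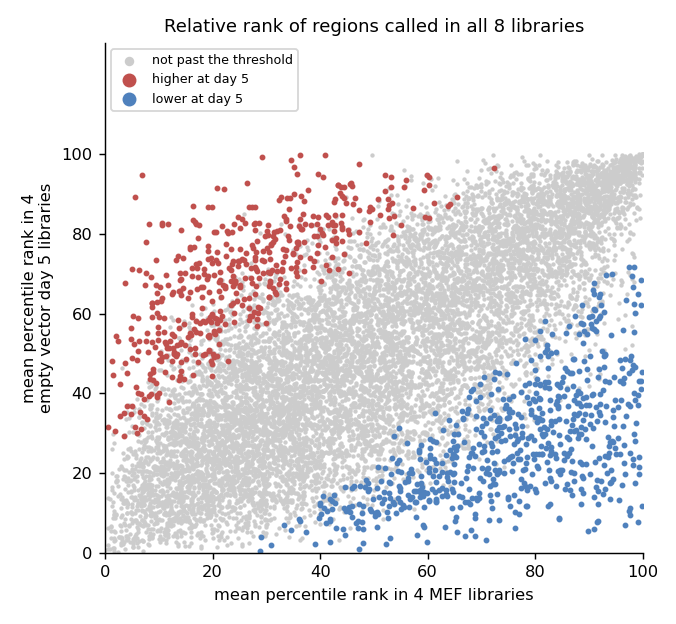
Each point is 1 of the 11784 regions called in all 8 libraries, by its mean percentile rank in 4 empty vector day 5 libraries (vertical) and 4 MEF libraries (horizontal). Coloured points passed an adjusted limma p of 0.05, with 482 above the diagonal (higher at day 5) and 673 below it (lower at day 5).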

How the data were processed

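Each library has its own MACS2 list, deposited by the authors, with no pooling of replicates. The submitters' processing notes list mm9 as the build, with MACS2, bedtools, SAMtools and Bowtie2 as tools. Their versions and settings, the filters on reads and whether cut sites were shifted are unknown here. The deposited lists hold the fold of each summit (a ratio to the local background), its -log10 p and -log10 q, a score (the integer part of 10 times the -log10 q) and the peak's position and summit. No deposited -log10 q was under 2. Peaks on 20 chromosomes were kept. Read totals were not used; depth was inferred from fold and p, which gave whole summit pileups for 100% of peaks (tolerance 0.002 in -log10 p).

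Overlapping peaks (1 bp or more) of the 8 lists were merged. Region calls were compared by Fisher's exact test, values per library by exact permutation tests, and ranks by limma 3.58.1. The scripts were tested on simulated data. Named regions were the 10 of each direction with the highest median percentile of fold, the 3 widest, the 3 densest bins and, chosen after their values were seen, the 5 largest rank differences each way. No mm9 annotation or genome was used here, so the planned promoter tests, gene lists and motif searches were not run. Members and lists were chosen with earlier results of these data known. Alternatives were the regions adjusted over, stricter or equal numbers of peaks, depth matching, 50% cover, summit windows, the replicate number as a block, and each library left out. Python 3.11.15, SciPy 1.17.1 and R 4.3.3 were used.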

Additional observations from a re-analysis of the deposited data

Results flagged for a closer look

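In 56 groups of 4 libraries, 4 had a library far from the other 3, where chance gives about 1 in 20. The median peak width was 158 bp in empty vector day 5 replicate 2, below the other 3 at 165 to 166 bp. MEF replicate 3 held 6.87% of its peaks on chromosome 1, below the other 3 MEF libraries, the highest of which held 7.01%. Empty vector day 5 replicate 4 held 6.10% of its peaks on chromosome 4, against 6.30% to 6.32% in the other 3. In MEF replicate 1, 39.95% of peaks in regions called in all 8 libraries were wider than 500 bp, against 20.6% to 23.8% in the other MEF libraries.

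Peaks outside chromosomes 1 to 19 and X were not used in any comparison. They made up 0.366% ± 0.0198 of the empty vector day 5 lists and 0.256% ± 0.00640 of the MEF lists (SD, n = 4 each). The 4 day 5 libraries lay between 0.343% and 0.384%, above the 4 MEF libraries at 0.252% to 0.265% (exact permutation p = 0.0286, the smallest possible, higher in 4 of 4 libraries). The peaks on unplaced sequence (chrUn_random) numbered 88 to 98 at day 5 and 42 to 83 in MEFs.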

How the results depend on the processing

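The numbers of opened and closed regions, 7789 and 8658, stayed within 1.5 times under equal numbers of peaks, stricter peaks, summit windows and depth matching, with closed regions the larger number in each; 50% cover left 4702 opened. No region passed (0 opened and 0 closed) when p-values were adjusted over regions called in at least 2 libraries or over all merged regions, where 7789 and 8658 had an unadjusted Fisher's exact p of 0.0286, nor without any 1 library (0 in each case). With the replicate numbers as a block 0 regions opened and 0 closed, since an exact test over 4 pairs cannot go below p = 0.125. On calls, 1 of 4 day 5 libraries matched best with the MEF library of its own number, and the numbers were not taken as pairs. Rank changes numbered 1086 higher and 1185 lower when ranked by summit pileup, 316 higher with the replicate block, and 323 to 377 higher and 454 to 550 lower without 1 library. In regions called in all 8, the replicate block kept the differences in median width (-98.75 bp), wide peaks (-14.5 points) and peaks per region (0.0976) at exact p = 0.125, and depth matching gave -86.25 bp, -14.7 points and 0.0451, none of which passed. Without 1 library they ranged from -72.3 to -110.3 bp, from -10.0 to -16.5 points and from 0.0895 to 0.106.

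The chromosome X difference of 0.0105 points turned to -0.0665 with depth matching and ranged from -0.0229 to 0.0479 without 1 library. Differences that turned were 0.0196, 0.00834 and 0.0114 for chromosome 3 (without day 5 replicate 2, MEF replicate 1 or MEF replicate 4; lowest without 1 library -0.0448), 0.0913 and 0.00691 for chromosome 14 (equal peaks, without MEF replicate 1; lowest without 1 library -0.0584), and 0.0351, 0.00763 and 0.0281 for chromosome 19 (equal peaks, stricter peaks, depth matching). None of these had passed the test, and the cause was not tested. Under depth matching 11 of 19 autosomes passed, and likewise with stricter peaks. As deposited 0 passed, and 0 with equal numbers of peaks, with the replicate block or without any 1 library. Gene promoter and motif alternatives were not run, for want of an mm9 annotation and genome here. Depth limits all counts: a region without a call may hold a signal under the threshold.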

Other observations

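Regions called in a single library made up a different share of each list. They were 9.70%, 9.96%, 16.5% and 11.1% of the regions called in the day 5 libraries and 21.1%, 6.19%, 11.1% and 9.34% in the MEF libraries. MEF replicate 1 alone held 14816 of them and MEF replicate 2 held 2468. These libraries had the highest and the lowest background pileup among the MEFs, 0.660 and 0.394. Within day 5, replicate 3 held the most (9253), while its background of 0.830 lay below the 0.881 of replicate 4, which held 5122.

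Among regions called in all 8 libraries, the mean percentile rank of the 2 groups did not overlap on 8 of 20 chromosomes, with 5 higher at day 5 (2, 5, 11, 16 and 19) and 3 lower at day 5 (1, 6 and 13). On chromosome 13 it was 47.5 to 49.1 at day 5, against 51.0 to 53.2 in MEFs, and on chromosome 11 49.2 to 51.5 at day 5, against 46.3 to 47.7 in MEFs. On chromosome 8 it was 46.4 to 48.5 at day 5, against 47.8 to 51.2 in MEFs, where the groups overlap. On that chromosome 19 regions ranked higher and 53 lower at day 5 of 769, and on chromosome 11 46 ranked higher and 35 lower of 868, by an adjusted limma p under 0.05. Over all 11784 regions 4.09% ranked higher and 5.71% lower, and the difference between chromosomes in these counts was not tested.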
